A study of Mus musculus with 8 samples.

Results

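The CXC chemokine ligands described here are 6 genes of cardiac macrophages, Cxcl1, Cxcl2, Cxcl3, Cxcl9, Cxcl10 and Cxcl16. They were taken by gene symbol from the 36708 gene IDs of the deposited expression table, all 6 were found, and 5 of them were among the 11725 genes that were abundant enough to test; Cxcl3 was not. RNA was sequenced from macrophages of mouse left ventricles in 8 libraries, 4 from mice given a control bone marrow transplant (BMT) and 4 from mice given LOY marrow (loss of Y chromosome), and the comparison asks how cardiac macrophages of mice given LOY marrow differ from those of mice given control marrow. Per the labels, left ventricles of both groups were digested with enzymes for 30 min at 37 °C, 6000 CD45.2+Ly6G-CD64+RFP+ cells were sorted per library (RFP is a red fluorescent protein), and both groups carry the treatment label control. Strain, age and the time after transplantation are not in the labels used here. Whether each library is a separate animal is not stated in the labels; a p-value here sets a difference against library-to-library spread, part of which may be technical.

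Chemokines are small secreted proteins that direct the movement of white blood cells through receptors on the cell surface, and the CXC ligands are named for the single residue between the first cysteines of the chain. Cxcl1, Cxcl2 and Cxcl3 carry a Glu-Leu-Arg motif, bind the receptor Cxcr2 and attract neutrophils; in macrophages their genes are induced through NF-kB and their mRNAs, rich in AU repeats, are short-lived. Cxcl9 and Cxcl10 are induced by interferons and attract activated T cells and NK cells through Cxcr3. Cxcl16 is made as a transmembrane protein that is cut from the surface by the proteases Adam10 and Adam17, binds Cxcr6 and also acts as a scavenger receptor for oxidised lipoprotein.

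On GRCm38 (GENCODE M21), Cxcl3 (chr5:90786103-90789600), Cxcl1 (chr5:90891241-90893115) and Cxcl2 (chr5:90903871-90905938) lie on the plus strand of chromosome 5, Cxcl9 (chr5:92321347-92328079) and Cxcl10 (chr5:92346638-92348889) on its minus strand, and Cxcl16 (chr11:70453983-70459984) on the minus strand of chromosome 11. Promoter and 3′ sequences are shown because NF-kB, interferon and mRNA decay, the known controls of these genes, act through them. The motif searched for NF-kB was GGGNNNTTC on both strands, and capitals mark its matches; the motifs and their lengths were chosen after the promoter sequences had been read. The RefSeq promoters (GRCm38.p6) of Cxcl1 (chr5:90891135-90891204), Cxcl2 (chr5:90903789-90903858) and Cxcl3 (chr5:90785991-90786060), all on the plus strand and shown from position -110 to -41 relative to the annotated start, each held the same run of letters matching on both strands, so that 2 matches overlap there, and 1 further match.
Cxcl1 promoter: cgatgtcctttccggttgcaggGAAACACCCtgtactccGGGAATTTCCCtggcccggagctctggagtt
Cxcl2 promoter: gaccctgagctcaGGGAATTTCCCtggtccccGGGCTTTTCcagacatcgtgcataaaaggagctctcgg
Cxcl3 promoter: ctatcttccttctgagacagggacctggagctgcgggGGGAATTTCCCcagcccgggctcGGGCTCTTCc

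In the Cxcl10 promoter (minus strand, chr5:92348980-92349109, shown from position -220 to -91) capitals mark 2 matches to the same NF-kB motif and 1 to GAAANNGAA, from the core of the element through which interferons act.
Cxcl10 promoter: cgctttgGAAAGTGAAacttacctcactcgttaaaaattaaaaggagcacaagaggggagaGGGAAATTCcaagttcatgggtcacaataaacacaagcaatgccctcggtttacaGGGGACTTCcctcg
Among 32851 promoters of the same length, 13.96% held GGGNNNTTC and 8.56% held GAAANNGAA. The Cxcl9 promoter held each of them once, GGGNNNTTC on the other strand at -154 to -146 and GAAANNGAA at -175 to -167, and the Cxcl1, Cxcl2 and Cxcl3 promoters held no GAAANNGAA. The AP-1 motif TGANTCA (7.81% of promoters) was in the Cxcl10 promoter at -74 to -68 and in that of Cxcl9 past the start, at 32 to 38. A match describes letters in a window and not a bound site.

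The 3′ untranslated regions (UTRs) of the neutrophil-attracting members were dense in ATTTA, the DNA letters of the AUUUA pentamer of unstable mRNAs. In the GENCODE M21 transcripts, Cxcl2 held 11 ATTTA in 737 bases (14.9 per kb), Cxcl1 held 7 in 595 bases (11.8 per kb) and Cxcl3 held 5 in 648 bases (7.72 per kb). Of 10378 tested genes with a 3′ UTR of at least 50 bases, whose median was 1.21 per kb, 0.395%, 0.771% and 2.30% were at least as dense. The densest 30 bases of each are shown with ATTTA in capitals.
Cxcl1 3′ UTR: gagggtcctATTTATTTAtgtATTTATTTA
Cxcl2 3′ UTR: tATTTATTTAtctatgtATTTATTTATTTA
Cxcl3 3′ UTR: caagatggcatcttATTTAatgtttATTTA
Cxcl10 held 2.73 per kb, Cxcl16 1.40 and Cxcl9 1.22, densities that 23.8%, 46.4% and 49.9% of tested genes reached or passed.

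**Figure D1:**
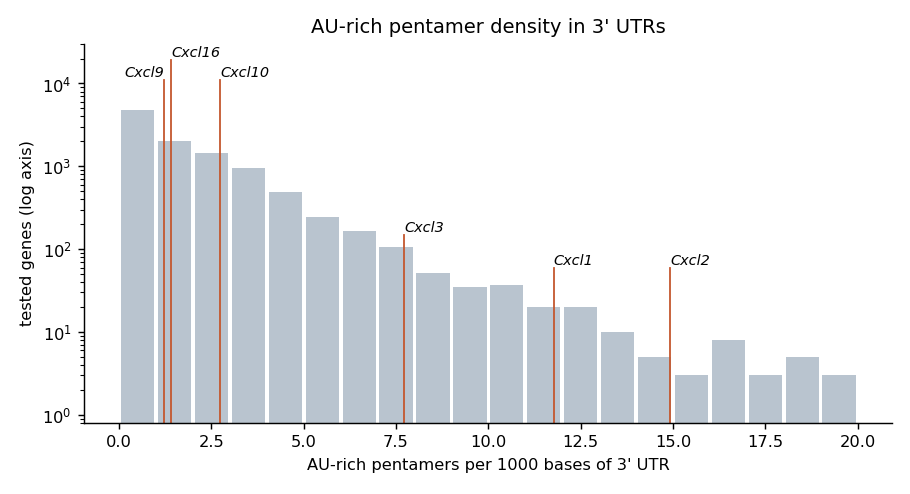
Density of the AU-rich pentamer in the 3′ UTRs of 10378 tested genes (grey bars, number of genes on a log axis, 1 bar per unit of the x axis, which gives pentamers per kb), with the 6 CXC ligands as lines whose height has no meaning. Cxcl2, Cxcl1 and Cxcl3 lie in the thin right tail at 14.9, 11.8 and 7.72, the other members lie in the bulk, and 16 genes at 20 or more are not drawn.

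Mean levels over the 8 libraries ran from 0.758 TPM for Cxcl3 to 884.4 TPM for Cxcl16. Expression was given as TPM, an abundance scaled to transcript length with an equal sum in every library. Levels can thus be compared between genes, and the read depth of each library is unknown. By mean TPM the order was Cxcl16, Cxcl10, Cxcl2, Cxcl9, Cxcl1 and Cxcl3, and the 5 tested members ranked 119, 389, 1422, 7501 and 9217 among the 11725 tested genes. Cxcl16 was above Cxcl10, and Cxcl2 above Cxcl9, in 8 of 8 libraries with ranges that did not meet. The other neighbours overlapped in range: Cxcl10 was above Cxcl2 and Cxcl9 above Cxcl1 in 7 libraries each, LOY replicate 1 being the exception in both, and Cxcl1 was above Cxcl3 in 7 libraries, all but control replicate 4. Cxcl16 supplied 56.1% to 80.2% of the summed TPM of the 6 genes in a library.

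The check of the labels and of the sort bears on every comparison that follows. The summed TPM of the 4 Y genes Ddx3y, Eif2s3y, Kdm5d and Uty was 80.8 to 109.1 in control libraries and 2.77, 46.4, 1.49 and 2.12 in LOY replicates 1 to 4, so the library labelled LOY replicate 2 kept 47.7% of the control mean. Fcgr1, which encodes CD64, stood at 300.6 to 657.7 TPM, Csf1r at 509.0 to 1557 TPM and Adgre1, the F4/80 antigen, at 466.1 to 973.2 TPM, while Ly6g was at 0 to 0.197 TPM. The 10 neutrophil markers summed to 45.1 to 89.6 TPM in control and 83.6 to 102.2 TPM in LOY libraries, mostly from Csf3r (41.9 to 72.2 and 82.9 to 97.0 TPM). Of the others, S100a9 reached 6.17, S100a8 5.42 and Mmp8 3.52 TPM, while Ngp was at 0 in all 8 libraries and Camp at 0 to 0.0573 TPM. Marker sums for other cells were 86.3 to 235.3 TPM (cardiomyocyte) and 40.5 to 77.2 TPM (B cell). Those for endothelial cells, fibroblasts, dendritic cells, and T and NK cells reached at most 47.9 TPM. The 10 macrophage markers summed to 35711 to 51548 TPM.

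**Figure D2:**
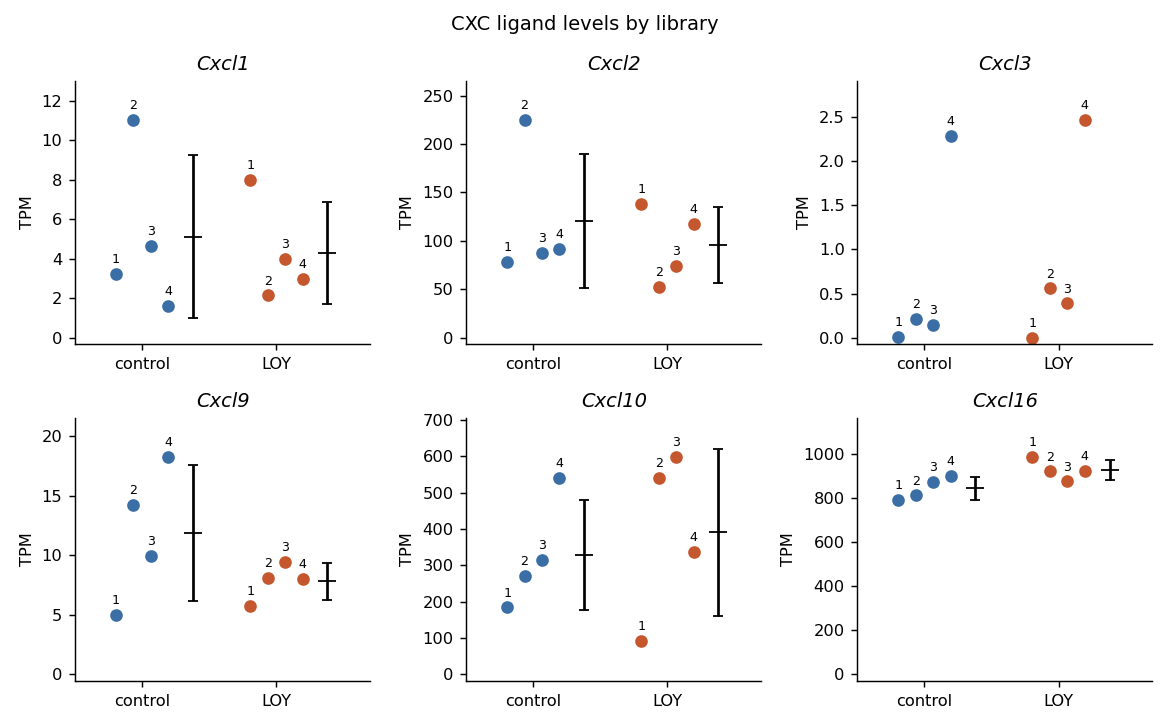
TPM of the 6 CXC ligands in each library (points numbered by replicate, control in blue and LOY in red; the horizontal tick and bar give the group mean ± SD, not drawn for Cxcl3, which is listed at 0 in 1 library). Each panel has its own linear axis, and the groups overlap in all 6 panels, Cxcl16 only through control replicate 4 (898.3 TPM) against LOY replicate 3 (874.5 TPM).

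None of the 5 tested members differed between LOY and control libraries beyond the replicate spread, and the values of the 2 groups overlapped for all 6 genes. Limma on log2(TPM + 1), with Benjamini-Hochberg adjustment over 11725 genes, called 0 of the 5 at an adjusted p under 0.05 (background 0% of all genes tested, 0 genes, while the authors' deposited table called 518 of them) and 0 of the 5 at an unadjusted p under 0.05 in either direction (background 19.3% higher and 3.45% lower in LOY, 22.7% or 2667 genes together). After median-of-ratios scaling that background was even, at 10.8% higher and 11.0% lower, and without control replicate 3 it was 9.93% higher. Non-overlapping groups were found for 0 of 6 members, against 9.37% of the genes tested. The median log2 fold change, LOY minus control, was -0.10 over the 5 members and 0.16 over all genes tested, 68.2% of which were above 0. The fold changes of the 5 members are therefore also given after median-of-ratios scaling, which brought the median of all genes to 0.00. Those of other genes are given without scaling, and a change of sign under scaling is stated beside them.

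Cxcl2, the most abundant of the neutrophil-attracting ligands, stood at 77.9, 224.5, 87.4 and 91.9 TPM in control replicates 1 to 4 and at 138.3, 52.1, 73.9 and 117.1 TPM in LOY replicates 1 to 4. Control replicate 2 was far above the other control libraries, and the LOY libraries lay on both sides of the remaining 3. Its mean was 120.4 ± 69.6 TPM in control and 95.3 ± 39.4 TPM in LOY (SD, n = 4 each). The log2 fold change was -0.29 (SE 0.37, 95% interval -1.11 to 0.53, limma adjusted p = 0.649) and -0.47 after median-of-ratios scaling. Without control replicate 2 it was 0.06, of the opposite sign, and without LOY replicate 2, the library that kept Y transcripts, it was -0.04. In these bulk libraries fewer cells that express a gene and less of its RNA per cell cannot be told apart.

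Cxcl1, which in mice is also known as KC, stood at 3.21, 11.0, 4.64 and 1.61 TPM in control replicates 1 to 4 and at 7.97, 2.14, 3.98 and 2.97 TPM in LOY replicates 1 to 4. The highest library was again control replicate 2 and the next LOY replicate 1, as for Cxcl2. Means were 5.12 ± 4.12 TPM in control and 4.27 ± 2.58 TPM in LOY (SD, n = 4 each). The log2 fold change was -0.10 (SE 0.45, 95% interval -1.11 to 0.90, limma adjusted p = 0.903), -0.25 after median-of-ratios scaling, and of the opposite sign without control replicate 2 (0.30) or without LOY replicate 2 (0.10).

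Cxcl3 was near absent in 6 of 8 libraries. It was at 0.0132, 0.216, 0.145 and 2.28 TPM in control replicates 1 to 4, listed at 0 in LOY replicate 1, and at 0.558, 0.389 and 2.47 TPM in LOY replicates 2 to 4. Replicate 4 of each group stood above 2 TPM and all other libraries below 0.6 TPM, and these are libraries in which neither Cxcl1 nor Cxcl2 was highest. The difference in mean, LOY minus control, was 0.189 TPM (exact two-sided permutation p = 0.571, the smallest possible being 0.0286). It was 0.728 TPM without control replicate 4, and negative without LOY replicate 4 (-0.349 TPM) or control replicate 1 (-0.028 TPM). The Cxcl2 and Cxcl3 transcripts share 7.41% and 8.11% of their stretches of 31 bases with each other, and how reads from these stretches were assigned was not stated in the labels or headers.

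Cxcl9, an interferon-induced ligand of Cxcr3, stood at 5.01, 14.3, 9.94 and 18.3 TPM in control replicates 1 to 4 and at 5.72, 8.07, 9.45 and 8.04 TPM in LOY replicates 1 to 4. Control libraries 2 to 4 lay above all LOY libraries, and control replicate 1 lay below all of them. Means were 11.9 ± 5.70 TPM in control and 7.82 ± 1.55 TPM in LOY (SD, n = 4 each). The log2 fold change was -0.44 (SE 0.32, 95% interval -1.15 to 0.28, limma adjusted p = 0.411), -0.60 after median-of-ratios scaling and -0.46 without LOY replicate 2. Without control replicate 1 it was -0.76 with a limma adjusted p of 0.0472, in a fit in which 0.537% of all genes were called lower and 14.9% higher; over all alternatives tried, that adjusted p ran from 0.0472 to 0.709.

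Cxcl10, the more abundant Cxcr3 ligand, stood at 184.3, 270.6, 314.5 and 539.6 TPM in control replicates 1 to 4 and at 91.0, 539.1, 598.0 and 336.4 TPM in LOY replicates 1 to 4. LOY replicate 1 was the lowest library and LOY replicate 3 the highest, with all control libraries between them. Means were 327.3 ± 151.6 TPM in control and 391.1 ± 229.3 TPM in LOY (SD, n = 4 each). The log2 fold change was 0.06 (SE 0.55, 95% interval -1.17 to 1.28, limma adjusted p = 0.956). Its sign did not hold: it was -0.13 after median-of-ratios scaling, -0.18 when control replicate 1 was left out, -0.20 without LOY replicate 2 and -0.25 when LOY replicate 3 was left out, and it was 0.65 without LOY replicate 1. The ratio of Cxcl10 to Cxcl9 in TPM was 19.0 to 36.7 in control libraries and 15.9, 66.8, 63.3 and 41.8 in LOY replicates 1 to 4; this ratio was read after the values were seen and was not tested. Cxcl10 overlaps Art3 on the opposite strand and shares 9.68% of its stretches of 31 bases with it.

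Cxcl16, the transmembrane ligand, was the most even member. It stood at 791.0, 810.8, 872.0 and 898.3 TPM in control replicates 1 to 4 and at 985.7, 919.9, 874.5 and 923.1 TPM in LOY replicates 1 to 4. Its highest library was 1.25 times its lowest, against 3.65 times for Cxcl9, 4.31 for Cxcl2, 6.57 for Cxcl10 and 6.84 for Cxcl1. Means were 843.0 ± 50.5 TPM in control and 925.8 ± 45.7 TPM in LOY (SD, n = 4 each). The log2 fold change was 0.14 (SE 0.11, 95% interval -0.10 to 0.37, limma adjusted p = 0.443) with all 8 libraries and 0.14 without LOY replicate 2, but -0.05 after median-of-ratios scaling, so its direction depended on the scaling. Zmynd15, a gene on the opposite strand that overlaps Cxcl16 and shares 19.6% of its stretches of 31 bases, stood at 54.4 to 104.2 TPM.

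**Figure D3:**
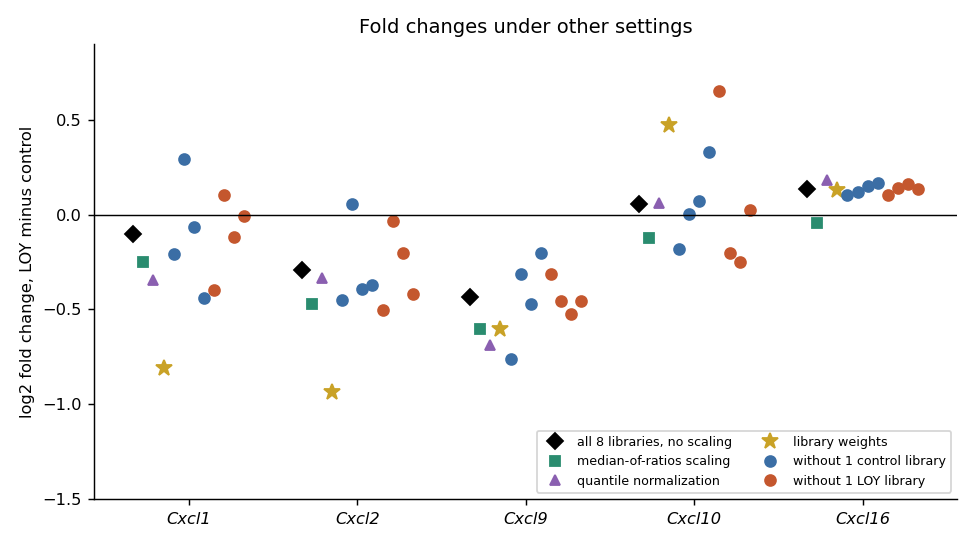
Log2 fold change of the 5 tested CXC ligands, LOY minus control, on the log2(TPM + 1) scale, with all 8 libraries (black diamonds), under median-of-ratios scaling, quantile normalization and library weights, and without each library in turn (blue, without 1 control; red, without 1 LOY; replicates 1 to 4 from left to right). Cxcl9 stays below 0 at all 12 points, from -0.76 to -0.20, Cxcl16 leaves the positive side only under median-of-ratios scaling, and Cxcl1, Cxcl2 and Cxcl10 have points on both sides.

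Correlations between members over the libraries ran in both directions. They are of log2(TPM + 1) over n = 8 libraries that share cDNA amplification and an unknown depth, and are given as descriptions. Cxcl1 and Cxcl2 had a Pearson r of 0.78 (Spearman rho 0.52), which rested on control replicate 2 and LOY replicate 1: r was 0.14 without them, the 2 libraries farthest from the median of Cxcl1. Cxcl9 and Cxcl10 had an r of 0.59 (rho 0.52), and Cxcl1 and Cxcl10 one of -0.60 (rho -0.60). Cxcl3 had an r of 0.54 with Cxcl10 (rho 0.76, r 0.90 without the 2 libraries farthest in Cxcl3) and of -0.62 with Cxcl1 (rho -0.69), at Cxcl3 levels below 0.6 TPM in 6 libraries. The genes most like each member among 10837 named genes were Nme3 (r = 0.97) and Atp6v0d2 (0.95) for Cxcl1, Fos (0.94) and Hspa2 (0.92) for Cxcl2, Gcsh (0.96) and Commd5 (0.95) for Cxcl9, Cd40 (0.98) and Trmt5 (0.98) for Cxcl10, and Dctn5 (0.94) and Sh3bgr (0.93) for Cxcl16. Each of these is picked as the highest of 10837 values over n = 8 libraries, so a high r comes in part from the picking. Fos is an immediate early transcription factor of the AP-1 family, and Cd40 is a costimulatory receptor of antigen-presenting cells.

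Cxcl1 and Cxcl2 were high where immediate early and heat shock genes, which digestion of tissue is known to induce, were high. The mean log2(TPM + 1) of 18 such genes was 7.43, 7.99, 7.38 and 7.0 in control replicates 1 to 4 and 8.17, 6.94, 7.37 and 7.54 in LOY replicates 1 to 4. Control replicate 2 and LOY replicate 1, the libraries highest in Cxcl1 and Cxcl2, were highest. With this mean, r was 0.91 for Cxcl1 (rho 0.74) and 0.82 for Cxcl2 (rho 0.81), and it was 0.92 and 0.87 after the group means were removed. It was 0.74 and 0.72 without the 2 libraries farthest from the median of the ligand. Cxcl10 ran the other way, with an r of -0.80 (rho -0.79, -0.69 without the 2 farthest libraries), while Cxcl16 had an r of 0.06 that became -0.76 without its 2 farthest libraries, and Cxcl3 one of -0.45 (-0.67). Of the 18 genes, 1 (5.56%) was higher and 0 were lower in LOY at an unadjusted p under 0.05, against 19.3% and 3.45% of all genes tested. Their median log2 fold change was 0.01, and it was -0.17 after median-of-ratios scaling, -0.20 without LOY replicate 1 and 0.22 without LOY replicate 2. The 3 with the smallest p were the chaperones Hspa8 (log2 fold change 0.65, limma adjusted p = 0.179) and Dnajb1 (0.48, adjusted p = 0.307) and the transcription factor Egr2 (0.26, adjusted p = 0.341). The part of digestion in the ligand levels was not tested.

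**Figure D4:**
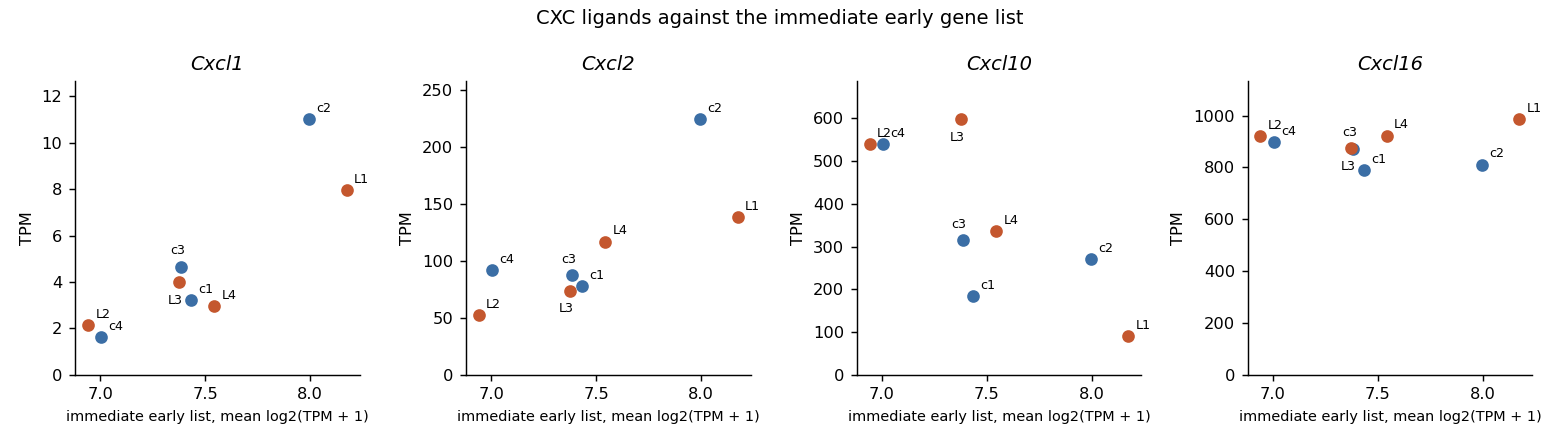
TPM of Cxcl1, Cxcl2, Cxcl10 and Cxcl16 (y axes) against the mean log2(TPM + 1) of 18 immediate early and heat shock genes (x axis) in the 8 libraries (c, control, blue; L, LOY, red; number, replicate). Cxcl1 and Cxcl2 are highest in c2 and L1 at the right, Cxcl10 is lowest in L1, and Cxcl16 is nearly level.

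Cxcl10 had an r of 0.56 (rho 0.67, n = 8) with the mean log2(TPM + 1) of 22 genes of interferon signalling and response, and higher ones with a few single genes. Cxcl11, the third Cxcr3 ligand, stood at 1.08, 1.39, 3.35 and 6.04 TPM in control replicates 1 to 4 and at 0.448, 3.72, 4.30 and 2.22 TPM in LOY replicates 1 to 4, with an r of 0.94 to Cxcl10 (rho 0.95, n = 8). LOY replicate 1 and control replicate 1 were the lowest libraries for both. The interferon regulatory factor Irf7 had an r of 0.90 to Cxcl10 and Fcgr1, an interferon-induced receptor that was also used in the sort, one of 0.97; these 3 pairings were chosen after their values were seen. Of the 22 genes, 7 (31.8%) were higher and 0 lower in LOY at an unadjusted p under 0.05, against 19.3% and 3.45% of all genes tested, with a median log2 fold change of 0.19 (0.16 over all genes tested). After median-of-ratios scaling 5 (22.7%) were higher and 1 lower, against 10.8% and 11.0% of all genes, with a median of 0.01. The number higher was 3 without control replicate 2, and 4 without control replicate 3, without LOY replicate 2 or with the replicate number as a block. The 3 with the smallest p were the receptor chain Ifnar1 (0.44), the kinase Jak1 (0.62) and the guanylate-binding protein Gbp5 (0.72), each at a limma adjusted p of 0.181.

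The rest of the CXC family was sparse apart from Pf4, the platelet factor that cardiac resident macrophages also express. Pf4 stood at 1455 to 2522 TPM in control and 1197 to 1923 TPM in LOY libraries (log2 fold change -0.30, limma adjusted p = 0.366), above Cxcl16 in mean. Ppbp was at 7.67 to 17.3 TPM in control and 6.98 to 8.94 TPM in LOY libraries (-0.47, adjusted p = 0.226). Fold changes were -0.10 for Cxcl11, 0.08 for Cxcl12, -0.17 for Cxcl13 and 0.08 for Cxcl14, with adjusted p from 0.849 to 0.913; those of Cxcl12 and Cxcl14 turned negative after median-of-ratios scaling (-0.06 and -0.05), and Cxcl5 and Cxcl15 were below 0.6 TPM in every library. Cxcl17, a mucosal chemokine, was the 1 of 7 tested genes in this list (14.3%) that reached an unadjusted p under 0.05, against 22.7% of all genes tested. It stood at 0.905, 1.80, 1.20 and 0.596 TPM in control replicates 1 to 4 and at 2.01, 2.95, 3.20 and 5.70 TPM in LOY replicates 1 to 4. Its groups did not overlap, which held for 9.37% of all genes tested. Its log2 fold change was 1.04 (SE 0.27, limma adjusted p = 0.179), and the adjusted p was 0.0453 without control replicate 1, in the fit that called 14.9% of all genes higher.

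**Figure D5:**
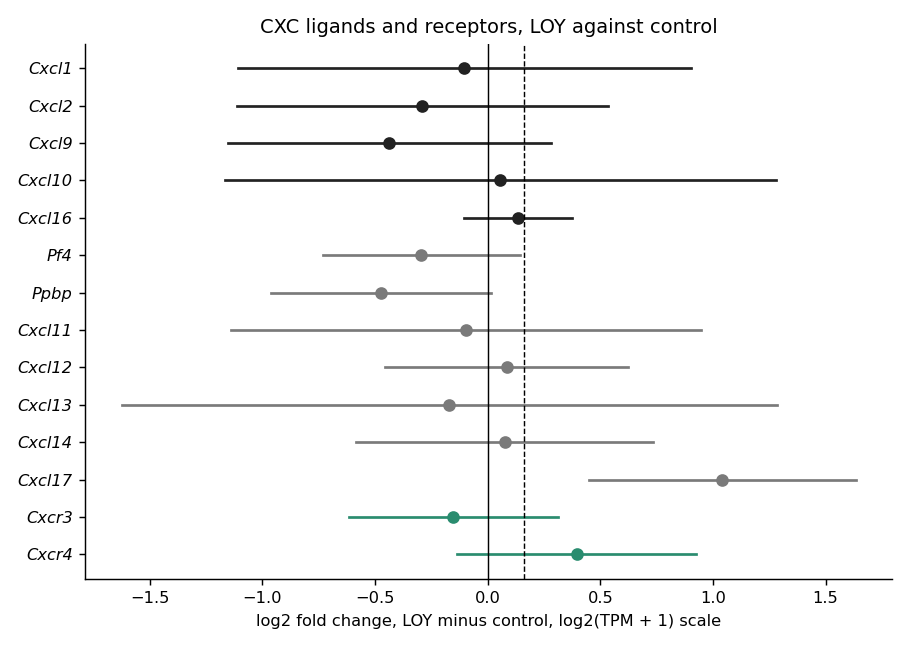
Log2 fold change (points, LOY minus control, log2(TPM + 1) scale) with 95% intervals (lines) for the 5 tested CXC ligands (black), the 7 other tested CXC ligands (grey) and the 2 tested receptors (green); the dashed line marks the median of all genes tested, 0.16. The intervals of the 5 ligands cross 0, and Cxcl17 at 1.04 is the 1 gene of the 14 whose interval does not.

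The receptors of these ligands were low in the sorted cells, except Cxcr3 and Cxcr4. Cxcr3, the receptor of Cxcl9 and Cxcl10, was at 10.9 to 21.6 TPM in control and 10.5 to 14.6 TPM in LOY libraries (log2 fold change -0.15, limma adjusted p = 0.671). Cxcr4, the receptor of Cxcl12, was at 12.1 to 24.3 and 18.6 to 31.8 TPM (0.40, adjusted p = 0.324). Cxcr1 was listed at 0 in all libraries, Cxcr2 reached at most 1.00 TPM and Cxcr6 at most 0.784 TPM.

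No gene that acts on the ligands, among the lists that follow, passed the adjusted threshold in the fit of all 8 libraries without library weights. In that fit 0 of all 11725 genes tested passed it. Of 7 tested proteases, 2 had an unadjusted p under 0.05 with higher LOY levels (28.6%, against 19.3% of all genes tested) and 0 with lower ones (3.45%). The median log2 fold change was 0.33, against 0.16 over all genes; it was 0.16 after median-of-ratios scaling, 0.12 without LOY replicate 2 and 0.07 without LOY replicate 3. Adam10, which sheds Cxcl16, stood at 65.8, 36.3, 29.0 and 56.1 TPM in control replicates 1 to 4 and at 74.9, 92.1, 66.7 and 80.9 TPM in LOY replicates 1 to 4. These groups did not overlap, which held for 9.37% of all genes tested. The Adam10 log2 fold change was 0.80 (SE 0.24, limma adjusted p = 0.179). Adam17 had a log2 fold change of 0.72 (SE 0.23, adjusted p = 0.181), and Mmp12, a macrophage metalloproteinase, -0.19 (adjusted p = 0.549). Without control replicate 1 the adjusted p was 0.0180 for Adam10 and 0.0349 for Adam17, in the same fit with 14.9% of all genes called higher.

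Of 27 tested genes of NF-kB induction, 13 (48.1%) were higher and 0 lower in LOY at an unadjusted p under 0.05, against 19.3% and 3.45% of all genes tested, with a median log2 fold change of 0.35. After median-of-ratios scaling 8 (29.6%) were higher, against 10.8% of all genes, and after quantile normalization 7 (25.9%), against 9.74%. The 3 with the smallest p were Map3k7 (0.81), the kinase TAK1 upstream of NF-kB, the NF-kB subunit gene Nfkb2 (0.69) and Irak2 (0.53), of Toll-like receptor signalling. Each had a limma adjusted p of 0.179. Their groups did not overlap, which held for 9.37% of all genes tested and is no separate support in genes picked by p. Of the 27 log2 fold changes, 23 were above 0. Nfkbia (-0.15) and Tnf (-0.19) were below 0, and Il1b was at 0.10 (-0.08 after median-of-ratios scaling). With the mean log2(TPM + 1) of the 27 genes, r over n = 8 libraries was -0.21 for Cxcl1, -0.17 for Cxcl2 and 0.29 for Cxcl3. It was -0.36 for Cxcl9, 0.04 for Cxcl10 and 0.46 for Cxcl16. Among 10 tested genes of AU-rich mRNA decay, 1 was higher and 0 were lower, a share below the 19.3% of all genes tested that were higher. That count was 0 higher and 1 lower after median-of-ratios scaling, 0 and 0 with the replicate number as a block, and 5 higher without control replicate 1. The 3 with the smallest p were the deadenylase scaffold Cnot1 (0.76, adjusted p = 0.204), the decay factor Khsrp (0.99, adjusted p = 0.227) and the stabilising factor Elavl1 (0.23, adjusted p = 0.307).

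Transcript length moved with the fold changes. Over 11600 tested genes Spearman's rho between log2 fold change and transcript length was 0.53, a correlation across genes, which are not independent replicates; among 4 length groups of near equal size the median log2 fold change was -0.10 in the shortest (38 to 1513 bases) and 0.41 in the longest (3915 to 123179 bases). The Cxcl1, Cxcl2, Cxcl3 and Cxcl10 transcripts, of 953, 1109, 1016 and 1094 bases, lie in the shortest group, and those of Cxcl9 (2889 bases) and Cxcl16 (2699 bases) in the third. The proteases and NF-kB genes had median lengths of 3607 and 2890 bases, against 2547 over all genes. The part of length in these differences was not tested.

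In the authors' deposited table, which holds their own comparison of LOY with control, the log2 fold changes were -0.29 for Cxcl1, -0.25 for Cxcl2, 0.43 for Cxcl3, -0.52 for Cxcl9, 0.25 for Cxcl10 and 0.25 for Cxcl16. The adjusted p in the authors' deposited table ran from 0.416 for Cxcl9 to 0.889 for Cxcl3, so 0 of the 6 passed 0.05 there, against 4.42% of the genes tested here. The mean count per library in the authors' deposited table was 24.4 for Cxcl3, 128.5 for Cxcl1, 559.9 for Cxcl9, 2785 for Cxcl2, 9948 for Cxcl10 and 52409 for Cxcl16, so Cxcl3 rested on the fewest reads.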

How the data were processed

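Libraries were made with SMART-Seq v4 and Nextera XT, which keep no strand, per the labels' protocols. The submitters' processing notes name the builds GRCm38 and mm10 and, with no role, STAR 2.5.2b, Trimmomatic 0.36, Subread 1.5.2 with featureCounts, and bcl2fastq 2.17. The authors deposited TPM per gene and library; the tool behind the TPM is not given in the sources used. The deposited table also holds the authors' log2 fold change with standard error, a score (fold change over error), a p-value, an adjusted p-value and a baseMean, under DESeq2 column names per the file headers; all baseMean values were whole multiples of 1/8 (tolerance 1e-05) and were read as mean counts.

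Columns named WT and KO were read as control and LOY, and their numbers as replicate numbers, from the names alone. Of 36708 gene IDs, 35868 were in GENCODE M21 (GRCm38). Genes averaging at least 1 TPM (11881) were kept, and 156 that repeated another ID's values were removed, leaving 11725. A pseudocount of 1 was added, so fold changes on the log2(TPM + 1) scale understate those of low genes. limma 3.58.1 (R 4.3.3; trend, robust) compared the groups in a two-sided test, p-values were adjusted by Benjamini-Hochberg, and the threshold was 0.05. Cxcl3, below the filter, was tested by exact permutation over the 70 assignments. The fit was tested on simulated data. The depth of each library is unknown, so no counting intervals are given. Replicate numbers were not taken as pairs in the main fit.

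The members and lists were chosen with earlier results of these data known. Named genes were the members, other CXC ligands and receptors of at least 1 TPM, the 3 genes of smallest p in each other list, the 2 genes most like each member (gene models skipped), and sort and Y markers; others were chosen after their values were seen. Promoters run from 250 bases before to 50 after the RefSeq start; 5 of 6 members matched, and Cxcl16 did not. ATTTA was counted with overlaps in the 3′ UTR of 1 GENCODE transcript a gene. Alternatives were pseudocounts of 0.1 and 5, a minimum mean of 5 TPM or none, median-of-ratios scaling, quantile normalization, a replicate block, limma without trend and robust, library weights, and each library left out in turn.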

Additional observations from a re-analysis of the deposited data

Results flagged for a closer look

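In 30 named genes, 60 groups of 4 libraries were searched for a library far from the other 3, and 7 were found; chance alone flags about 1 in 20 groups. Cxcl2 in control replicate 2 stood at 224.5 TPM against 77.9 to 91.9 TPM in the other control libraries. Cxcl3 in control replicate 4 stood at 2.28 TPM against 0.0132 to 0.216 TPM. Cxcl13, a B cell attractant, stood at 6.69 TPM in control replicate 2 against 0 to 0.449 TPM, and at 3.77 TPM in LOY replicate 2 against 0.0339 to 0.506 TPM. Cxcl14 in LOY replicate 3 was low, at 1.66 TPM against 3.25 to 3.41 TPM. Cxcr4 in LOY replicate 4 stood at 31.8 TPM against 18.6 to 19.0 TPM. Map3k7 in LOY replicate 3 was low, at 26.6 TPM against 31.4 to 31.8 TPM.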

How the results depend on the processing

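Cxcl9 kept its negative sign under the 17 alternatives, Cxcl16 its positive sign except under median-of-ratios scaling (-0.046), and Cxcl10 also reversed there (-0.13). Leaving out each library in turn gave log2 fold changes from -0.44 to 0.30 for Cxcl1, -0.50 to 0.055 for Cxcl2, -0.76 to -0.20 for Cxcl9, -0.25 to 0.65 for Cxcl10 and 0.11 to 0.17 for Cxcl16, a Cxcl3 difference from -0.35 to 0.73 TPM, and 0 to 1805 genes past the adjusted threshold. The count was 1805 when control replicate 1 was left out, 5 for LOY replicate 2 and 1 for control replicate 4, and Cxcl9 was among the 1805. Library weights called 3103 genes, none of them a member, and moved Cxcl1 to -0.81, Cxcl2 to -0.94 and Cxcl10 to 0.47. Cxcl9 was at -0.604 there, with a limma unadjusted p of 0.0243 and an adjusted p of 0.0739. The weights were highest for control replicate 2 (2.499) and LOY replicate 2 (2.134), and lowest for LOY replicate 1 (0.3709). Control replicate 2 was the highest library in Cxcl1 and Cxcl2, LOY replicate 2 the lowest in Cxcl2, and LOY replicate 1 the lowest in Cxcl10. The other settings called 0 genes. The cause of these changes in gene count and fold change was not tested. Across genes, the deviations of same-numbered libraries from their group means had correlations of -0.03, -0.15, 0.04 and -0.07. Whether equal numbers share a batch is not in the labels, and these correlations cannot decide it. With the replicate block 0 genes passed, the Cxcl9 log2 fold change was -0.44 and the Cxcl3 difference 0.189 TPM. A mean of at least 5 TPM gave no value for Cxcl1. The Cxcl3 difference in TPM was recomputed only without each library and with the block, since the other settings act on the limma fit. The 4 libraries a group leave a median half-width of 0.41 for the 95% interval of a log2 fold change, and sources of spread between libraries are not in the labels.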
